A study of Mus musculus with 12 samples.

Results

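The expression of 10 feedback genes of the ERK (extracellular signal-regulated kinase) pathway was followed in mature white adipocytes. The cells received a β-adrenergic agonist with lipolysis intact or blocked. The genes encode inhibitors of the pathway, apart from Phlda1, which is often read as a marker of its output. The 10 genes were the rows of the count table with the symbols Spry1, Spry2, Spry4, Spred1, Spred2, Dusp1, Dusp4, Dusp5, Dusp6 and Phlda1, out of 20295 genes in all. They were selected on their role in the pathway with their changes between the 4 groups of these same libraries known, so their differences between groups are a description and not a test. No p-value is printed for them, and where they are counted past the threshold used for all genes, the count is set beside the share of all genes and supports nothing. All 10 were among the 13543 genes with enough counts to be tested.

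The cells were epididymal white adipocytes of lean male C57/BL6J mice, freed with collagenase, floated off the other cells, embedded in a hydrogel at 50000 cells per well and treated after 2 days of culture. The 12 libraries formed 4 groups of 3. The vehicle group received DMSO, the ISO group received isoproterenol, a pan β-adrenergic receptor agonist, for 3 h, the Lip group received lipase inhibitors, and the Lip+ISO group received the inhibitors and ISO. The inhibitors named in the methods of the study are Atglistatin, against adipose triglyceride lipase (ATGL), and CAY10499, against hormone-sensitive lipase (HSL). The study lists CAY10499 as an inhibitor of the lipase MGL too. All groups shared the isolation, the hydrogel and the culture time. The study describes 3 independent biological experiments, with technical duplicates in each. Nothing says which animals or wells gave each library, so the spread between the 3 libraries of a group may still be partly technical. The comparisons ask how the effects of ISO differ when the lipases are inhibited. For brown adipocytes the study proposes that inhibiting lipolysis raises protein kinase A signaling. A difference seen here therefore need not mean that a gene depends on lipolysis.

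In the ERK pathway, receptor tyrosine kinases activate Ras through adaptors such as Grb2, and Ras activates the kinases Raf, MEK and ERK in turn. Active ERK raises transcription of early genes such as Egr1 and Fos and also of its own inhibitors. Sprouty and Spred proteins act upstream, at the level of Ras and Raf, whereas dual-specificity phosphatases (Dusp) remove the activating phosphates from ERK and related kinases. In adipocytes, β-adrenergic receptors signal mainly through cAMP and protein kinase A, and ERK is a further kinase that they can activate. Only mRNA was measured here, not ERK activity or protein.

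Library totals ranged from 22632220 to 43707557 counts, and a count of 0 allows up to 3 counts. Levels are given as CPM (counts scaled to library size, with TMM scaling between libraries), and as RPKM (CPM per kilobase of counted exons) where genes are compared with each other. Principal component analysis separated the libraries by ISO on the first component (63.9% of the variance), and Lip replicate 3 lay apart on the third (7.39%), with a score of 23.1 against -9.62 to 6.36 in the other 11. Summed adipocyte markers were at 23363 to 35113 CPM over all libraries, against 14.4 to 957 CPM for the macrophage, endothelial, fibroblast, mesothelial and mural lists, and no marker was at 0 in every library. The lists of other cell types moved with the groups. Summed endothelial markers were at 104 to 201 CPM in vehicle, 246 to 445 in ISO, 52.4 to 178 in Lip and 83.4 to 244 in Lip+ISO, and summed fibroblast markers at 369 to 656, 727 to 957, 490 to 519 and 452 to 629 CPM. Summed macrophage markers, with 8 of 9 listed genes in the table, were at 49.8 to 63.7, 107 to 160, 54.9 to 59.7 and 69.7 to 119 CPM in the same order. Mesothelial markers were at 24.8 to 56.6, 65.4 to 75.6, 14.4 to 59.8 and 41.9 to 51.8 CPM, and mural markers at 225 to 349, 277 to 397, 281 to 361 and 203 to 276 CPM. These libraries are bulk samples, in which fewer cells of a type and less RNA per cell cannot be told apart.

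Promoter sequences are shown for the 3 of these genes whose window held a binding motif searched for, because such motifs connect a gene to cAMP or to ERK. The windows are the 250 bases before the start in RefSeq (GRCm38.p6, another build than the mm9 of the counts), read 5′ to 3′ on the strand of the gene, for the 7 genes with an entry, and no window was read for Spry4, Dusp4 and Phlda1. The search covered both strands for the cAMP response element TGACGTCA, for its shorter form TGACG, which also lies inside TGACGTCA, for the CArG box bound by serum response factor, and for CCGGAA, the core of the site of ETS factors, which ERK phosphorylates. Capitals mark the motifs, and CGTCA is TGACG on the other strand.
Dusp1 (chr17:26508473-26508722, minus strand): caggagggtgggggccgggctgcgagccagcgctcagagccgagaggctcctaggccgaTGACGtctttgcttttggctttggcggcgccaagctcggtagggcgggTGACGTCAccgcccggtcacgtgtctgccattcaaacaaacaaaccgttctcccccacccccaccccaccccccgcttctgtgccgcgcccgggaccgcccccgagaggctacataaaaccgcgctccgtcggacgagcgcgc
Dusp5 (chr19:53528895-53529144, plus strand): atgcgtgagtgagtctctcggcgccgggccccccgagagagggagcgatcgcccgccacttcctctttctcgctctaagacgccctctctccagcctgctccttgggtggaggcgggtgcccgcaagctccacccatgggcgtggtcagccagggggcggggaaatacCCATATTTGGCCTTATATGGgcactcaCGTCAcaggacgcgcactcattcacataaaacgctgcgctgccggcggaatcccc
Spred2 (chr11:19924192-19924441, plus strand): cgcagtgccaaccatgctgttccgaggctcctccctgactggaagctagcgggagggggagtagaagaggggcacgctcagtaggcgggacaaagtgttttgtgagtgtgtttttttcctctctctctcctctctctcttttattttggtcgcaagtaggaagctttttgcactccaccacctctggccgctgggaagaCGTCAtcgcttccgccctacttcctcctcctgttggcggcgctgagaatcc
Dusp1 held TGACGTCA at 143 bases before its start, a further TGACG at 191, and TGACG on both strands within the TGACGTCA. Dusp5 held 2 adjoining CArG boxes at 82 and 72 bases before its start and TGACG at 55. Spred2 held TGACG at 51. The windows of Spry1, Spry2, Spred1 and Dusp6 held none of the 4. Among 32841 windows of 27018 genes, TGACGTCA was in 1.55%, TGACG in 17.8%, the CArG box in 1.47% and CCGGAA in 12%. A match is a description of the letters and does not show that a factor binds there.

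**Figure D1:**
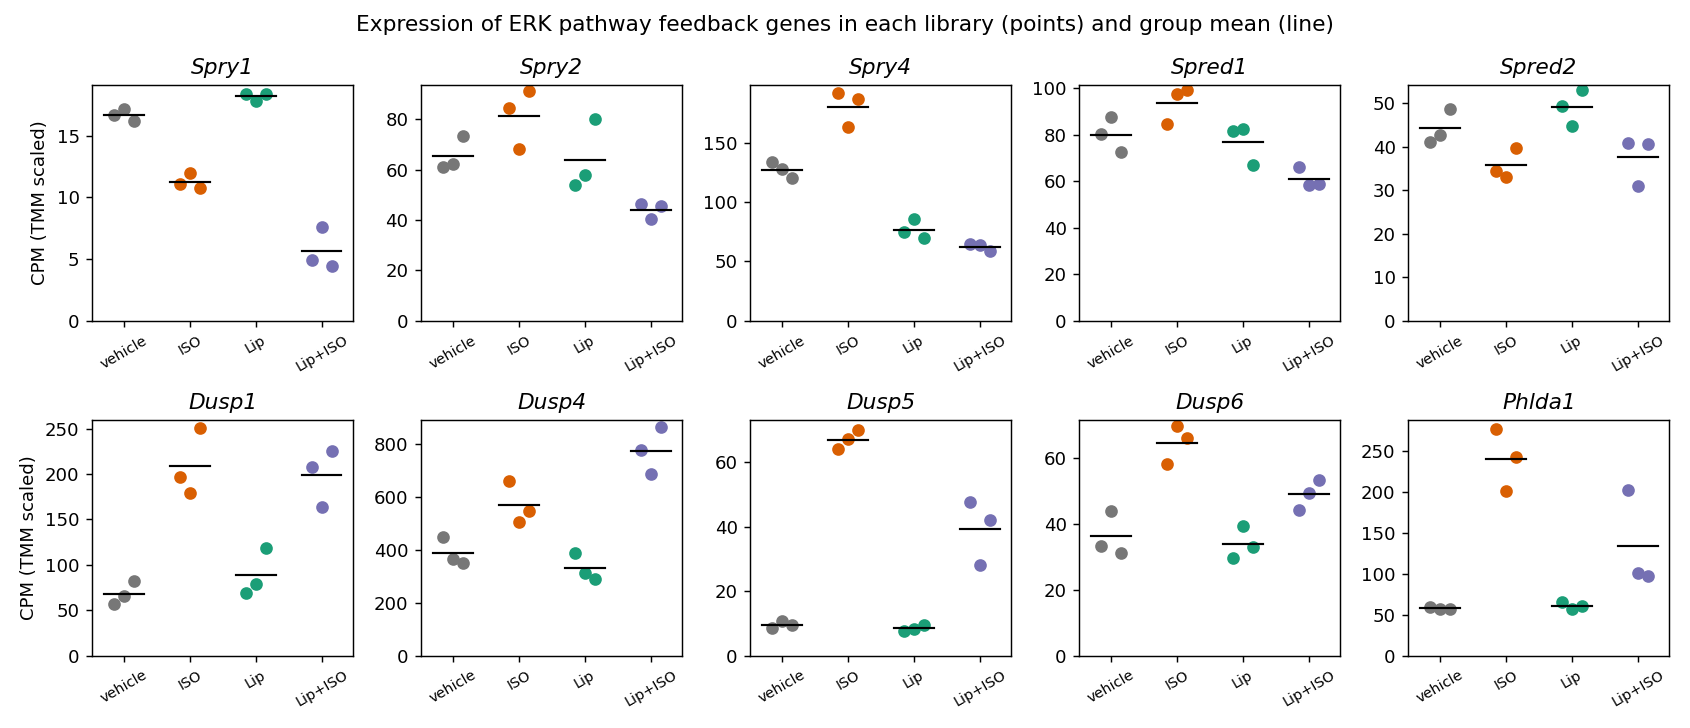
CPM (y axis, linear from 0) of each of the 10 genes in vehicle, ISO, Lip and Lip+ISO (x axis), with a point for each library and a line at the group mean. Dusp1, Dusp4, Dusp5, Dusp6 and Phlda1 were higher in both groups with ISO than in both without it. Spry1 was lowest in Lip+ISO, and Spry4 was lower in both groups with inhibitors.

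The first comparison, ISO against vehicle, asks how the genes respond to the agonist with active lipases. In ISO, 6 genes were higher at an adjusted p at or under 0.05 (edgeR, called passing below), namely Dusp5, Phlda1, Dusp1, Dusp6, Dusp4 and Spry4, and Spry1 was lower. Over all tested genes, 12.3% passed as higher and 13.9% as lower, and nothing is read from the counts of the 10 genes, since the genes were chosen with this contrast known. With a log2 fold change of at least 1 as well, Dusp5, Phlda1 and Dusp1 passed as higher and none of the 10 as lower, against 5.68% and 1.8% of all genes. In 8 of the 10 genes the groups did not overlap, as in 43.3% of all genes. The median log2 fold change was 0.53 over the 10 genes and 0.00 over all tested genes. To see what remains of the response when the lipases are inhibited, Lip+ISO was compared with Lip, which shares no library with the first comparison. There, 5 genes passed as higher, against 11.5% of all genes, and these were Dusp1, Dusp4, Dusp5, Dusp6 and Phlda1. The 5 Sprouty and Spred genes all passed as lower, against 15.8% of all genes. With a log2 fold change of at least 1 as well, Dusp1, Dusp4, Dusp5 and Phlda1 were higher and Spry1 was lower, against 4.19% and 3.16% of all genes. The groups did not overlap in any of the 10 genes, and in 39.1% of all genes. The median was 0.11 over the 10 genes and 0.00 over all genes.

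**Figure D2:**
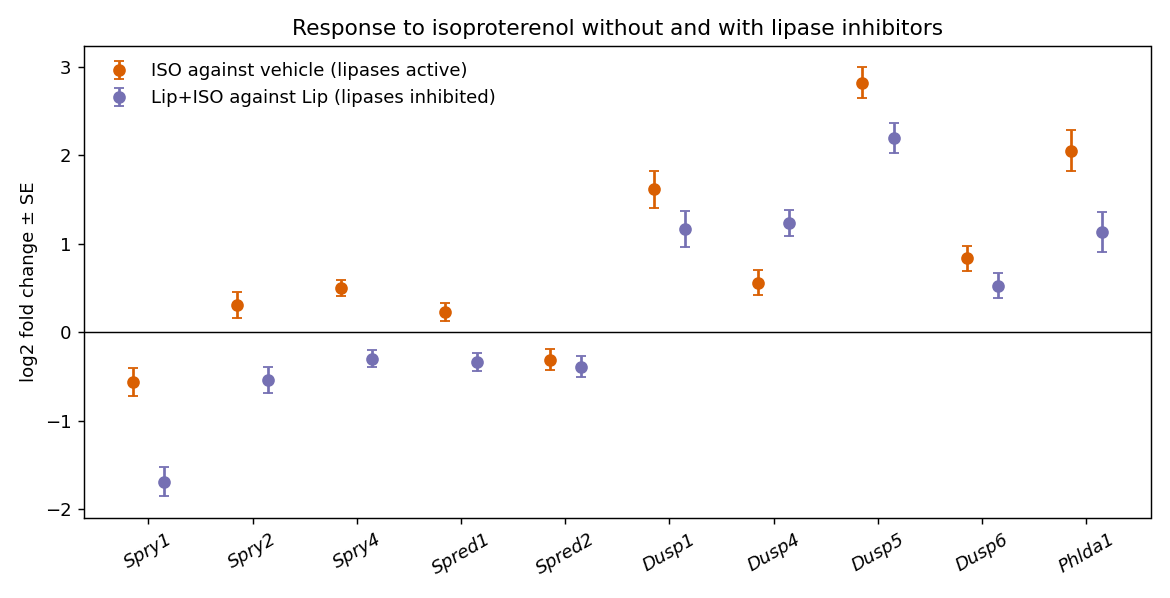
Log2 fold change with its SE (y axis) of each of the 10 genes (x axis) for ISO against vehicle and for Lip+ISO against Lip, from edgeR over all 12 libraries. The 4 phosphatases and Phlda1 lie above 0 in both, whereas Spry2, Spry4 and Spred1 lie above 0 without inhibitors and below 0 with them.

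Dusp5, a phosphatase of nuclear ERK, had the largest rise of the 10 genes in both comparisons (NM_001085390, mm9 chr19:53603808-53615812). It was at 8.62, 10.6 and 9.32 CPM in vehicle and at 63.9, 67.0 and 70.0 CPM in ISO. In Lip it was at 7.66, 8.34 and 9.60 CPM, and in Lip+ISO at 47.6, 28.1 and 41.9 CPM. Every library with ISO lay above every library without it, and every ISO library lay above every Lip+ISO library. The log2 fold change was 2.82 ± 0.17 (SE) without inhibitors, a 7.06-fold rise, and 2.20 ± 0.17 with them. In Lip+ISO against ISO it was -0.77 ± 0.16.

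Dusp1, which acts on p38 and JNK as well as ERK (NM_013642, mm9 chr17:26642536-26645417), responded to ISO with and without inhibitors. Its level was 57.0, 65.2 and 81.8 CPM in vehicle and 197, 179 and 250.3 CPM in ISO. It was 68.5, 78.7 and 119 CPM in Lip and 208, 164 and 225 CPM in Lip+ISO. The libraries with ISO did not overlap those without, but ISO and Lip+ISO overlapped. The rise was 1.62 ± 0.21 (log2, SE) without inhibitors and 1.17 ± 0.21 with them, and Lip+ISO differed from ISO by -0.07 ± 0.20, with a 95% interval of -0.54 to 0.40. Lip replicate 3, the library that stood apart, had the highest Dusp1 of its group, and without it the rise with inhibitors was 1.44.

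Dusp4, another nuclear phosphatase of ERK, JNK and p38 (NM_176933, mm9 chr8:35870664-35882948), had the highest level per length of the 10 genes in every group, with mean RPKM of 159.7 in vehicle, 235 in ISO, 136 in Lip and 319 in Lip+ISO. Its CPM values were 447, 364 and 352 in vehicle, 659.9, 505 and 548 in ISO, 389, 312 and 289 in Lip and 776, 685 and 864 in Lip+ISO. All 3 Lip+ISO libraries lay above all ISO libraries, and all ISO libraries above all vehicle libraries. Its response to ISO was 0.56 ± 0.14 (log2, SE) without inhibitors and 1.23 ± 0.14 with them, and it was 0.44 ± 0.14 for Lip+ISO against ISO, which did not pass. The rise without inhibitors did not pass when vehicle replicate 3 was left out, nor when replicate 2 or replicate 3 of every group was, where it was 0.49, 0.59 and 0.52.

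Dusp6, the cytoplasmic ERK phosphatase (NM_026268, mm9 chr10:98725865-98730123), had a smaller response. It was at 33.4, 44.0 and 31.2 CPM in vehicle, 58.0, 69.6 and 66.0 in ISO, 29.6, 39.2 and 33.1 in Lip and 44.2, 49.3 and 53.4 in Lip+ISO. Both groups with ISO lay above both groups without it, and ISO lay above Lip+ISO with no overlap. ISO raised it by 0.84 ± 0.14 (log2, SE) without inhibitors and 0.53 ± 0.14 with them, and its Lip+ISO against ISO value, -0.40 ± 0.14, did not pass. The rise with inhibitors did not pass without Lip replicate 1 or without replicate 1 or 3 of every group, where it was 0.45, 0.52 and 0.44.

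Phlda1, a pleckstrin homology-like domain protein that is often read as a marker of ERK output (NM_009344, mm9 chr10:110943342-110945705), had a wide spread within Lip+ISO. Its levels were 59.4, 56.8 and 57.2 CPM in vehicle, 277, 201 and 242 in ISO, 65.3, 56.8 and 60.8 in Lip and 202, 101 and 97.6 in Lip+ISO. The first Lip+ISO library lay within the range of ISO and the other two lay below it, while all 3 lay above Lip. The rise was 2.05 ± 0.23 (log2, SE), or 4.15-fold, without inhibitors and 1.13 ± 0.23 with them. Lip+ISO against ISO was -0.84 ± 0.22 and passed, but the groups overlapped and the call was lost in 7 of the 15 refits on fewer libraries. Those refits left out vehicle replicate 3, ISO replicate 1 or 3, Lip+ISO replicate 2 or 3, or replicate 2 or 3 of every group, with values from -1.27 to -0.65 over all 15.

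The 5 Sprouty and Spred genes were all lower in Lip+ISO than in Lip, where the phosphatases were higher. Spry4, a Sprouty inhibitor of Ras signaling (NM_011898, mean 27.7 RPKM in vehicle), was at 134, 128 and 120.1 CPM in vehicle and at 192, 163 and 186 in ISO. It was at 74.4, 85.6 and 70.1 CPM in Lip and at 64.6, 64.0 and 58.5 in Lip+ISO. The 4 groups did not overlap at all, in the order ISO, vehicle, Lip and Lip+ISO. The log2 fold change to ISO was 0.50 ± 0.09 (SE) without inhibitors and -0.30 ± 0.09 with them. Both effects of the inhibitors were negative, -0.73 ± 0.09 without ISO and -1.53 ± 0.09 with it, the latter 2.89-fold lower.

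Spry1, the Sprouty gene with the lowest level (NM_011896, mm9 chr3:37538872-37543521), fell with ISO in both settings. It was at 16.7, 17.1 and 16.2 CPM in vehicle, 11.1, 12 and 10.7 in ISO, 18.4, 17.8 and 18.4 in Lip and 4.93, 7.60 and 4.41 in Lip+ISO. No 2 groups overlapped, and the order was Lip, vehicle, ISO and Lip+ISO. The log2 fold change to ISO was -0.56 ± 0.16 (SE) without inhibitors and -1.69 ± 0.17 with them, and Lip+ISO against ISO was -0.99 ± 0.17. The fall without inhibitors did not pass in 5 of the 15 refits on fewer libraries, which were those without vehicle replicate 1, ISO replicate 1 or 3, or replicate 1 or 3 of every group, with values from -0.61 to -0.53 over all 15.

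Spry2, the Sprouty gene of the highest level per length in vehicle (31.4 RPKM) and in Lip (30.7) (NM_011897, mm9 chr14:106291164-106296036), was at 61.1, 62.2 and 73.6 CPM in vehicle, 84.4, 68.4 and 91.2 in ISO, 54.0, 57.9 and 80.2 in Lip and 46.3, 40.3 and 45.6 in Lip+ISO. Every Lip+ISO library lay below every library of the other 3 groups. Its log2 fold change was 0.31 ± 0.15 (SE) for ISO against vehicle, where the groups overlapped and the value did not pass, and -0.54 ± 0.15 for Lip+ISO against Lip. Against ISO, Lip+ISO was at -0.88 ± 0.15. Lip replicate 3 had the highest Lip value, and without it Lip+ISO against Lip was -0.34 and did not pass, as it also did not without Lip+ISO replicate 2 (-0.47) or without replicate 2 or 3 of every group (-0.55 and -0.37).

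Spred1, which binds the Ras regulator neurofibromin (NM_033524, mm9 chr2:116946807-117008013), was at 80.1, 87.5 and 72.6 CPM in vehicle, 84.5, 97.3 and 99.3 in ISO, 81.4, 82.4 and 67.2 in Lip and 66.0, 58.2 and 58.6 in Lip+ISO. Again all Lip+ISO libraries lay below all others. Lip+ISO was at -0.62 ± 0.10 (log2, SE) against ISO and -0.34 ± 0.10 against Lip, and ISO against vehicle, at 0.23 ± 0.10, did not pass.

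Spred2, its close relative (NM_033523, mm9 chr11:19824445-19922600), was at 41.1, 42.8 and 48.8 CPM in vehicle, 34.5, 33.0 and 39.7 in ISO, 49.4, 44.8 and 53.1 in Lip and 40.9, 31.1 and 40.7 in Lip+ISO. It was lower with ISO than without, with no overlap, in both settings, at -0.31 ± 0.12 (log2, SE), which did not pass, and -0.39 ± 0.12. Unlike the other Sprouty and Spred genes, it overlapped between Lip+ISO and ISO, at 0.07 ± 0.12 (95% interval -0.21 to 0.35). With the replicate number as a block, the ISO against vehicle values of Spred2 (-0.31) and Spry2 (0.30) passed as well. That fit called 2552 of 13543 genes higher and 2660 lower, against 1670 and 1878 in the main fit. In Lip+ISO against Lip, the falls of Spry4, Spred1 and Spred2 did not pass when only those 2 groups were fitted, at -0.29, -0.33 and -0.38, and they were lost in 7, 6 and 6 of the 15 refits on fewer libraries, each of these refits being one without Lip replicate 1, 2 or 3, Lip+ISO replicate 2 or 3, or replicate 1, 2 or 3 of every group. Their values ranged from -0.36 to -0.22 for Spry4, from -0.43 to -0.25 for Spred1 and from -0.46 to -0.26 for Spred2.

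To isolate the effect of the inhibitors, Lip was compared with vehicle and Lip+ISO with ISO. Without ISO, Spry4 alone of the 10 genes passed, as lower, in a comparison in which 0.0443% of all genes passed as lower and 0.00738% as higher. Its fold change was below the log2 minimum of 1, which 0.0222% of all genes met as lower. The call was lost in 8 of the 15 refits on fewer libraries (those without any one vehicle library, Lip replicate 1 or 3, or replicate 1, 2 or 3 of every group), and over all 15 the value lay between -0.82 and -0.68. The Spry1 libraries of Lip also lay above those of vehicle without overlap, at 0.13 ± 0.16 (log2, SE). Spry4 and Spry1 were the 2 of the 10 genes without overlap, against 10.4% of all genes. With ISO, 6 genes passed as lower (Spry4, Spry1, Spry2, Phlda1, Dusp5 and Spred1) against 4.59% of all genes, and none as higher against 4.36%. At an unadjusted p under 0.05, 1 gene was higher, Dusp4, which DESeq2 also called. With a log2 fold change of at least 1, Spry4 alone was lower, against 1.2% of all genes, and 0.79% were higher. The groups did not overlap in 7 of the 10 genes and in 25.4% of all genes. The median was -0.70 over the 10 genes and -0.01 over all genes. Besides Phlda1, calls that were lost on fewer libraries were those of Dusp5 (replicate 2 or 3 of every group), Spred1 (replicate 2) and Spry1 (replicate 1 or 3), with values of -0.58, -0.79, -0.56, -0.91 and -0.88. This comparison shares the ISO libraries with ISO against vehicle, so a high ISO value would raise one and lower the other.

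**Figure D3:**
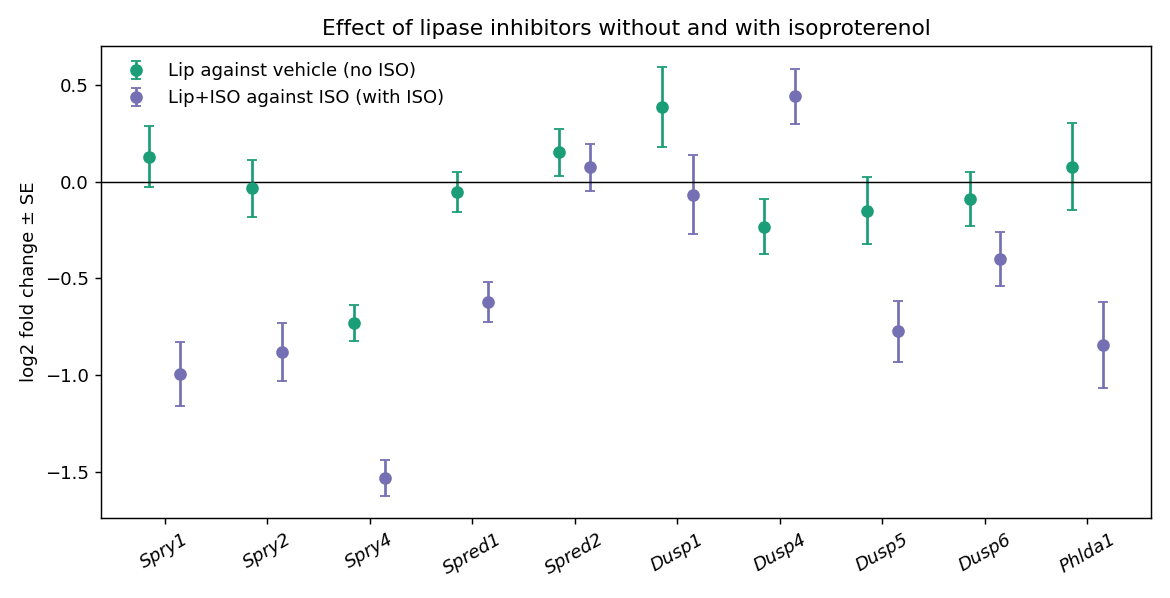
Log2 fold change with its SE (y axis) of each of the 10 genes (x axis) for Lip against vehicle and for Lip+ISO against ISO, from edgeR over all 12 libraries. Spry4 lies below 0 in both, Spry1, Spry2, Spred1, Dusp5 and Phlda1 lie below 0 with ISO and between -0.15 and 0.13 without it, and Dusp4 lies above 0 with ISO.

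By their medians, the marker lists of other cell types lay below 0 in Lip+ISO against ISO and above 0 in Lip+ISO against Lip. Dusp1, Dusp5, Dusp6 and Phlda1 had the same signs, at -0.07, -0.77, -0.40 and -0.84, then 1.17, 2.20, 0.53 and 1.13. Spry1, Spry2, Spry4 and Spred1 lay below 0 in both comparisons. Dusp4 lay above 0 in both, and Spred2 above 0 in Lip+ISO against ISO and below 0 in Lip+ISO against Lip. In Lip+ISO against ISO the median log2 fold change was -0.73 over the 8 endothelial, -0.72 over the 8 fibroblast, -0.70 over the 6 mesothelial, -0.54 over the 6 mural and -0.43 over the 8 macrophage markers, and 0.03 over the 8 adipocyte markers. In ISO against vehicle the same medians were 0.95, 0.90, 0.90, 0.57, 0.99 and -0.34, and in Lip+ISO against Lip they were 0.64, 0.16, 0.45, 0.19, 0.58 and -0.15. Their part in the values of the 10 genes was not tested.

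The interaction term (the log2 change to ISO under inhibitors after subtracting the change without them) passed as negative for Spry1 (-1.12 ± 0.23, SE) and Spry4 (-0.80 ± 0.13), against 0.724% of all genes, while 0.901% passed as positive. Spry1 alone also had a size of at least 1, against 0.34% of all genes as negative and 0.406% as positive. It was also negative for Spry2 (-0.85 ± 0.21), Spred1 (-0.56 ± 0.15), Phlda1 (-0.92 ± 0.32), Dusp5 (-0.62 ± 0.23), Dusp1 (-0.45 ± 0.29), Dusp6 (-0.31 ± 0.20) and Spred2 (-0.08 ± 0.17), and positive for Dusp4 (0.67 ± 0.20), none of which passed. The median was -0.59 over the 10 genes and -0.02 over all genes. On fewer libraries, Spry1 passed in 3 of 15 refits (without ISO replicate 1, Lip+ISO replicate 1 or Lip+ISO replicate 2), with values from -1.39 to -0.95, and Spry4 was lost without replicate 1, 2 or 3 of every group, with values from -0.87 to -0.71. Phlda1 passed without Lip+ISO replicate 1 (-1.35) or replicate 1 of every group (-1.18), and Spred1 without Lip replicate 3 (-0.65).

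Summed per length, the Sprouty and Spred genes were lowest in Lip+ISO. The phosphatase sums overlapped between ISO (383 to 449 RPKM) and Lip+ISO (409 to 527). From ISO to Lip+ISO, mean RPKM rose for Dusp4 (235 to 319). It fell for Dusp1 (107 to 102), Dusp5 (58.0 to 33.9) and Dusp6 (23.1 to 17.5). The 5 Sprouty and Spred genes together were at 93.9 ± 2.22 RPKM (SD, n = 3) in vehicle, 110.1 ± 9.22 in ISO, 84.0 ± 5.57 in Lip and 59.7 ± 3.30 in Lip+ISO. The 4 phosphatases together were at 216 ± 14.9, 424 ± 35.6, 201 ± 11.2 and 473 ± 60.1 RPKM. The ratio of phosphatases to Sprouty and Spred genes was 2.53, 2.23 and 2.14 in the vehicle libraries, 4.01, 3.83 and 3.72 in ISO, 2.67, 2.31 and 2.22 in Lip and 7.69, 7.25 and 8.81 in Lip+ISO. Vehicle and Lip overlapped in this ratio, ISO lay above both, and Lip+ISO lay above ISO. Dusp4 made up most of the phosphatase sum, 70.3% to 79.1% in vehicle, 51.4% to 60.5% in ISO, 59.4% to 75.3% in Lip and 66.1% to 69.1% in Lip+ISO. Spry4 made up 27.1% to 31.6%, 34.4% to 37.3%, 16.9% to 22.7% and 21.3% to 24.8% of the Sprouty and Spred sum.

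**Figure D4:**
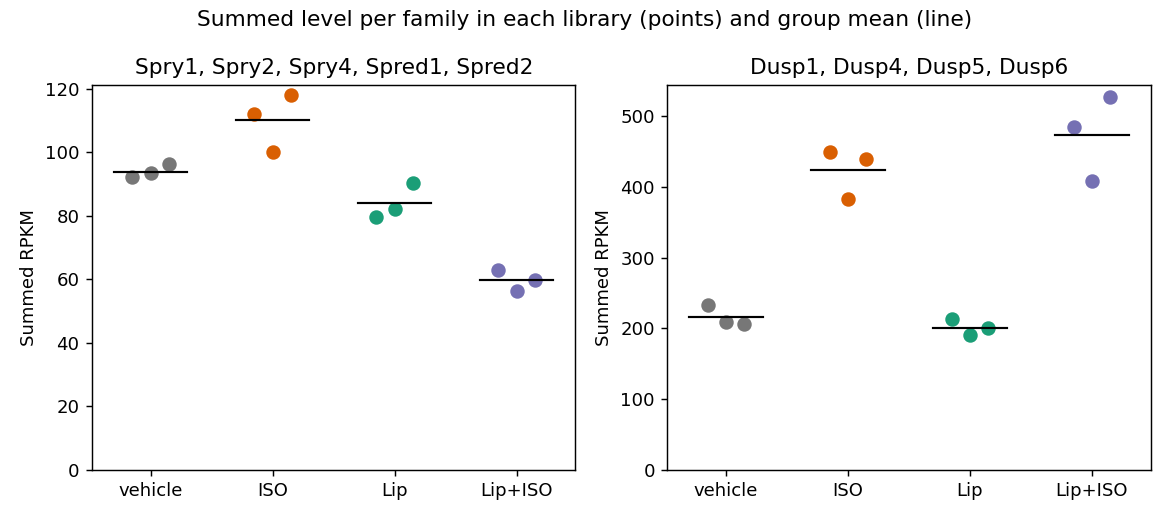
Summed RPKM (y axis, linear from 0) of the 5 Sprouty and Spred genes and of the 4 phosphatases in each group (x axis), with a point for each library and a line at the group mean. The Sprouty and Spred sum is lowest in Lip+ISO, at 59.7, and the phosphatase sum is high in both groups with ISO, at 424 and 473.

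Across the 12 libraries, which share the effect of ISO as their main source of variation, log2 CPM of Dusp5 went with Phlda1 (Pearson r = 0.95, n = 12), Dusp1 (0.93) and Dusp6 (0.91), and Spry4 went with Spred1 (0.84) and Spry2 (0.77). Spry1 went against Dusp4 (-0.93) and Dusp1 (-0.77), and Spred2 against Dusp6 (-0.78). The genes outside the 10 with the most similar pattern over the 12 libraries were Fam65a and Nup93 for Spry1 (0.99 and 0.98), Pvr and Tsc22d2 for Spry2 (0.94 and 0.92), Slc4a7 and Mtus1 for Spry4 (0.97 and 0.96), Mllt11 and Xrn2 for Spred1 (0.96 and 0.93) and Tnpo2 and Camsap1 for Spred2 (0.94 each). For the phosphatases they were Pnrc1 and the clock gene Per1 for Dusp1 (0.99 and 0.98), Chst1 for Dusp4 (0.98), the cytokine gene Clcf1 and the monocarboxylate transporter gene Slc16a1 for Dusp5 (0.99 each) and Fam129a and the syndecan gene Sdc1 for Dusp6 (0.98 and 0.97). For Phlda1 they were Chac1, a target of the unfolded protein response, and the circadian repressor gene Bhlhe40 (0.99 and 0.98). These correlations are descriptions over libraries of 4 groups, with no test.

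The rest of the pathway was read from a list of 81 genes in 5 groups (feedback inhibitors, phosphatases, cascade kinases and adaptors, outputs and receptor tyrosine kinases), of which 80 were in the table and 78 had enough counts. In ISO against vehicle, 19 of the 78 passed as higher and 13 as lower, against 12.3% and 13.9% of all genes. In Lip+ISO against Lip 19 and 16 passed, against 11.5% and 15.8%. In Lip+ISO against ISO 8 passed as higher and 10 as lower, against 4.36% and 4.59%. The interaction passed for 2 in each direction, against 0.901% as positive and 0.724% as negative. Nothing is read from these counts or those of the 5 groups, since the lists were chosen with earlier results known. In Lip against vehicle none of the 78 passed in edgeR, and DESeq2 called 1 higher, where it called 22 of 13543 genes higher. The medians over the 78 genes were 0.06, -0.02, -0.04, -0.09 and 0.03 in that order, close to those of all genes.

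Among the outputs of the pathway, 6 of 21 rose with ISO and 2 fell, against 12.3% and 13.9% of all genes. In Lip+ISO against ISO 1 rose and 3 fell, against 4.36% and 4.59%. Egr1, an immediate early transcription factor, was at 27.6, 36.9 and 32.5 CPM in vehicle, 431, 329.7 and 354 in ISO, 22.2, 25.6 and 21.3 in Lip and 47.1, 38.1 and 38.1 in Lip+ISO. It rose 11.5-fold with ISO, and the Lip+ISO libraries lay just above those of vehicle. The log2 fold change for Lip+ISO against ISO was -3.18 ± 0.14 (SE, edgeR adjusted p = 2.25e-07) and an interaction of -2.69 ± 0.19 (adjusted p = 3.21e-05). Fos, of the AP-1 complex, was at 47.6 ± 11.0 CPM (SD, n = 3) in ISO and 17.2 ± 1.52 in Lip+ISO, a change of -1.46 ± 0.17 (log2, SE, edgeR adjusted p = 1.69e-04). Myc, a growth regulator, was at 65.8 ± 3.00 CPM in ISO and 26.8 ± 4.08 in Lip+ISO (-1.29 ± 0.11, edgeR adjusted p = 1.83e-05), below its 54.4 ± 3.91 in vehicle. Fosl1, another AP-1 subunit, went the other way, from 205 ± 24.2 CPM in ISO to 357 ± 51.4 in Lip+ISO (0.80 ± 0.17, edgeR adjusted p = 0.0108), and it overlaps Ccdc85b, so its reads are uncertain. It is named as the 1 output that rose there, chosen after its value was seen. With ISO alone, Junb rose by 3.06 ± 0.31 (log2, SE, edgeR adjusted p = 1.73e-05) and Ier3, an early gene of cell survival, by 2.69 ± 0.18 (adjusted p = 5.88e-07).

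Among the 9 other phosphatases, 4 rose and 2 fell with ISO, against 12.3% and 13.9% of all genes. In Lip+ISO against ISO 2 rose and 2 fell, against 4.36% and 4.59%. Dusp16, which acts mainly on JNK and p38, had the strongest rise in Lip+ISO. It was at 68.1, 56.1 and 71.3 CPM in vehicle, 120.2, 101 and 114 in ISO, 71.2, 59.2 and 66.0 in Lip and 301, 279.6 and 356 in Lip+ISO. Lip+ISO was 1.49 ± 0.12 above ISO (log2, SE, edgeR adjusted p = 1.35e-05), and the interaction was 1.48 ± 0.17 (adjusted p = 8.98e-04). Dusp16 and Dusp4 both had their highest group mean in Lip+ISO. Dusp10, also a phosphatase of JNK and p38, rose by 1.53 ± 0.16 with ISO (log2, SE, edgeR adjusted p = 2.12e-05) and was -0.66 ± 0.16 in Lip+ISO against ISO (adjusted p = 0.0190). Dusp9, an ERK phosphatase, rose by 0.94 ± 0.30 with ISO (edgeR adjusted p = 0.0382) and was -1.87 ± 0.32 in Lip+ISO against ISO (adjusted p = 0.00274), where its libraries were at 11.3, 8.12 and 3.61 CPM. Dusp14 rose by 1.63 ± 0.38 with ISO (edgeR adjusted p = 0.00692) from a low level of 0.929 ± 0.344 CPM (SD, n = 3).

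Of the 11 other feedback inhibitors tested, 2 rose and 2 fell with ISO, against 12.3% and 13.9% of all genes. In Lip+ISO against ISO 2 fell, against 4.59%. Dab2ip, a Ras GTPase-activating protein, had the largest fall with ISO, from 91.7 ± 5.63 CPM (SD, n = 3) to 24.1 ± 3.92 (-1.93 ± 0.12, log2, SE, edgeR adjusted p = 2.85e-07). Errfi1, an inhibitor of the EGF receptor, rose by 0.81 ± 0.15 (edgeR adjusted p = 0.00153). The ubiquitin ligase gene Cblb rose by 0.49 ± 0.14 with ISO (edgeR adjusted p = 0.0247) and was -0.81 ± 0.15 in Lip+ISO against ISO (adjusted p = 0.00391), and its relative Cbl was -0.45 ± 0.11 there (adjusted p = 0.0288).

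Of the 25 cascade kinases and adaptors, 3 rose and 5 fell with ISO, against 12.3% and 13.9% of all genes. In Lip+ISO against ISO 5 rose and 1 fell, against 4.36% and 4.59%. Most of these changes were small. The adaptor gene Frs2 was 0.56 ± 0.10 higher in Lip+ISO than in ISO (log2, SE, edgeR adjusted p = 0.00331). The adaptor gene Gab2 was -0.45 ± 0.07 (edgeR adjusted p = 0.00135). Grb2 had an interaction of 0.45 ± 0.08 (edgeR adjusted p = 0.0190), with 84.3 ± 2.86 CPM (SD, n = 3) in ISO and 110.2 ± 2.56 in Lip+ISO. With ISO alone, the adaptor gene Gab1 and the Ras exchange factor gene Sos2 changed by -0.94 ± 0.14 (edgeR adjusted p = 4.89e-04) and by -0.64 ± 0.12 (adjusted p = 0.00196).

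Of the 12 receptor tyrosine kinases tested, 4 rose and 2 fell with ISO, against 12.3% and 13.9% of all genes. In Lip+ISO against ISO 2 fell, against 4.59%. Pdgfra was 0.93 ± 0.23 with ISO (log2, SE, edgeR adjusted p = 0.0109) and -1.03 ± 0.23 in Lip+ISO against ISO (adjusted p = 0.0152), and Egfr was -0.77 ± 0.18 in the latter (adjusted p = 0.0190). Pdgfrb was 0.88 ± 0.22 with ISO (edgeR adjusted p = 0.0103) and Kit 1.02 ± 0.35 (adjusted p = 0.0484). Pdgfra is also in the fibroblast marker list and Pdgfrb in the mural one.

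**Figure D5:**
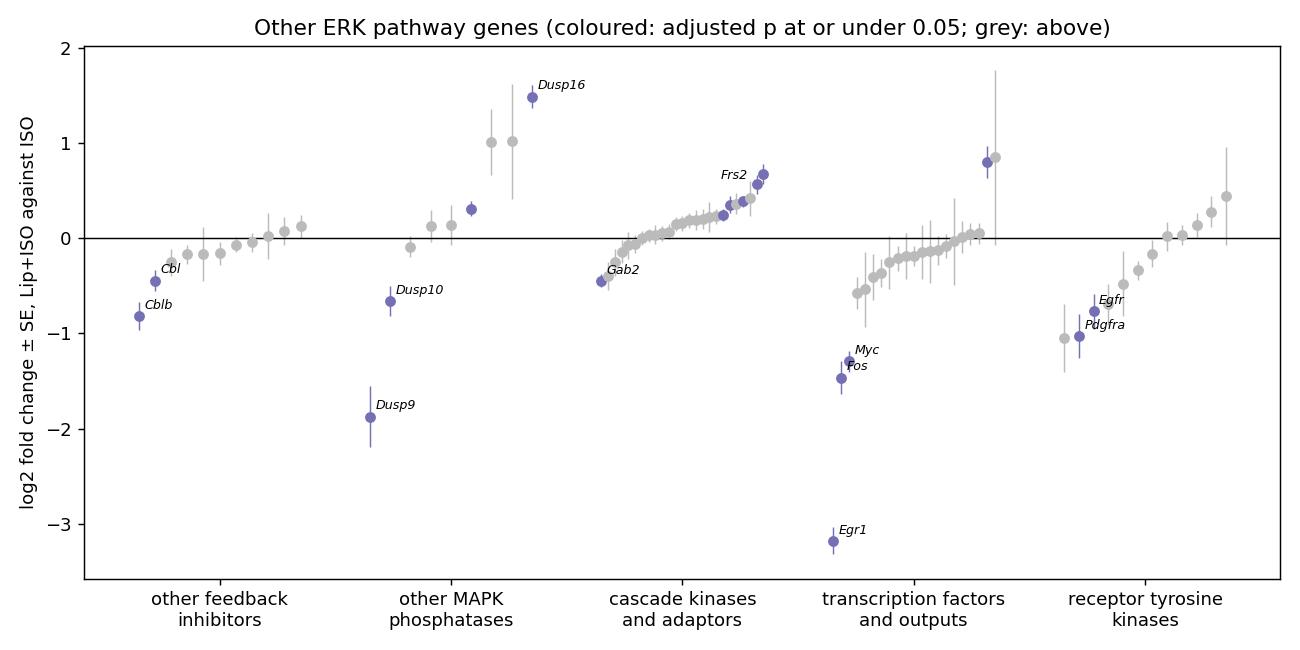
Log2 fold change with its SE for Lip+ISO against ISO (y axis) of the 78 other ERK pathway genes, sorted within 5 lists (x axis), coloured where the edgeR adjusted p was at or under 0.05, with up to 3 such genes named per list. Egr1 at -3.18 and Dusp16 at 1.49 are the lowest and highest of the coloured genes.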

How the data were processed

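RNA was sequenced from 12 cultures of white adipocytes. The deposited values are raw read counts per RefSeq gene, which the authors made by aligning reads to mm9 with STAR (2.4.2a per the labels) and counting with HOMER and iRNA-seq, with HOMER accepting 1 read per position and read length, so strongly expressed short genes could be understated. Deposited gene lengths gave RPKM. All 12 count columns were used, and groups and replicate numbers came from the sample titles. The titles name ISO as the stimulus, whereas a figure legend of the study names SR-3420. No 2 libraries were identical.

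Counts were fitted in R 4.3.3 with edgeR 4.0.16 (filterByExpr, TMM factors 0.924 to 1.07, quasi-likelihood F-test, two-sided, 1 mean per group, 12 libraries, Benjamini-Hochberg over 13543 genes, common biological coefficient of variation 0.163). Intervals (95%) are the fold change and its SE with 8 residual degrees of freedom. DESeq2 1.42.0, which the study used, was an alternative, beside other scalings, no filter, a fold minimum, a replicate block, the compared groups alone and leaving out libraries. Scripts were tested on simulated data.

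The 10 genes and all lists were chosen with earlier results of these data known. Named beyond the 10 genes are, from each pathway list, up to 3 genes of largest change among those passing in Lip+ISO against ISO and in ISO against vehicle, those passing in the interaction, and for each of the 10 genes the 2 with the highest Pearson r of log2 CPM (prior count 2). Some genes that this rule picks are not reported here.

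Same-numbered libraries of different groups deviated together (18 pairs, r of 0.0373 to 0.369, median 0.27, against a median of -0.12 for other pairs). All 3 pairs were over 0.1 in every comparison but Lip+ISO against ISO (lowest 0.0373) and the interaction. The main fit took the numbers as pairs in no comparison, so its SEs and calls are unpaired. Only the refit with the replicate number as a block used them. Promoter sequences come from RefSeq (GRCm38.p6).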

Additional observations from a re-analysis of the deposited data

Results flagged for a closer look

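Among the 10 feedback genes and the 78 other pathway genes tested, the interaction term of ISO and lipase inhibitors passed for 6 in edgeR. The adjustment was over 13543 genes, of which 0.901% passed as positive and 0.724% as negative. Of the feedback genes, Spry1 had a difference of -1.12 and Spry4 of -0.80 on the log2 scale. These values are a description, because the genes were chosen with this contrast known. On fewer libraries, Spry1 passed in 3 and Spry4 in 12 of 15 refits. The other pathway genes were not read gene by gene in the refits. Of the other pathway genes, the difference was -2.69 for Egr1 (edgeR adjusted p = 3.21e-05), -1.39 for Myc (adjusted p = 7.61e-04), 1.48 for Dusp16 (adjusted p = 8.98e-04) and 0.45 for Grb2 (adjusted p = 0.0190). With a difference of 0.45, Grb2 had the smallest of these.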

How the results depend on the processing

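The log2 fold changes of the 10 feedback genes kept their direction wherever they passed. They moved by less than 1 SD between libraries in 1029 of 1040 refits over 50 values. That limit could hardly be exceeded, so nothing is read from it. Many refits left out a library outside the groups compared, and leaving out 1 of 3 moves a group mean by less than the SD of that group. Counts of passing genes moved with the setting. Requiring a log2 fold change of at least 1 could only lower the counts, by the construction of the rule. The feedback genes passing were then 3 higher and 0 lower in ISO against vehicle and 4 and 1 in Lip+ISO against Lip. They were 0 and 0 in Lip against vehicle, 0 and 1 in Lip+ISO against ISO and 0 and 1 in the interaction. The other pathway genes were 8 and 1, 7 and 4, 0 and 0, 1 and 5, and 1 and 2 in the same order. Over all 13543 genes the counts were 769 and 244, 568 and 428, 0 and 3, 107 and 162, and 55 and 46. With library totals alone, which shifted the median of all genes in Lip+ISO against Lip to -0.12, 2 feedback genes were lower in ISO against vehicle, Dusp6 (0.41) did not pass in Lip+ISO against Lip, and the interaction passed for 1 other gene higher and 4 lower. With DESeq2, 1 feedback gene was higher in Lip+ISO against ISO, the interaction passed for 1 higher and 4 lower feedback genes and for 5 higher and 5 lower other genes, and 1 other gene was higher in Lip against vehicle. With only the groups compared, 2 feedback genes were lower in Lip+ISO against Lip, Phlda1 (-0.84) did not pass in Lip+ISO against ISO, and the other genes were 1 higher in Lip against vehicle and 5 higher in Lip+ISO against ISO. With median-of-ratios factors, Spred2 (-0.35) did not pass in Lip+ISO against Lip. Calls over all genes moved in these settings too. Library totals alone called 2329 lower in ISO against vehicle, from 1878, and 1069 higher in Lip+ISO against Lip, from 1562. DESeq2 called 903 higher in Lip+ISO against ISO, from 590, and 337 higher and 242 lower in the interaction, from 122 and 98. The compared groups alone gave 349 higher in Lip+ISO against ISO, from 590, and 1698 lower in Lip+ISO against Lip, from 2140. The cause of these shifts was not tested.

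With the replicate number as a block, feedback genes passing were 7 higher (Spry2, 0.30, added) and 2 lower (Spred2, -0.31, added) in ISO against vehicle, 1 higher (Dusp4, 0.45) in Lip+ISO against ISO, where Dusp6 (-0.39) also passed as lower, and 1 higher and 5 lower in the interaction. Of the other genes, 21 were lower in ISO against vehicle, 1 was higher in Lip against vehicle, and the interaction passed for 5 higher and 8 lower. The block changed no other call of a feedback gene, and 12 of 12 libraries correlated best with their own number. Over all 13543 genes the block raised the calls as well. In ISO against vehicle 2552 passed as higher and 2660 as lower, from 1670 and 1878 without it. In Lip+ISO against ISO 1149 and 1458 did, from 590 and 621. The interaction passed for 427 and 471, from 122 and 98, and 6 were higher in Lip against vehicle, from 1.

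Leaving out libraries, the feedback genes passing as higher and lower numbered 5 to 6 and 0 to 2 in ISO against vehicle, 0 to 0 and 0 to 1 in Lip against vehicle, 0 to 1 and 3 to 6 in Lip+ISO against ISO, 4 to 5 and 1 to 5 in Lip+ISO against Lip and 0 to 0 and 0 to 3 in the interaction. The other pathway genes numbered 13 to 22 and 7 to 15, 0 to 1 and 0 to 0, 2 to 9 and 6 to 11, 14 to 20 and 11 to 18, and 1 to 4 and 1 to 3, in the same order. Calls over all genes moved as well. Without replicate 2 of every group, calls in ISO against vehicle were 1050 higher and 834 lower of 13544, from 1670 and 1878. In Lip+ISO against Lip they were 930 and 1162, from 1562 and 2140. In Lip+ISO against ISO they were 167 and 212, from 590 and 621, and in Lip against vehicle 0 and 0, from 1 and 6. In the same refit the interaction passed for 6 genes as higher and 9 as lower. Without Lip+ISO replicate 1 it passed for 177 and 151 of 13761, against 122 and 98 of 13543 in the main fit. With 3 libraries a group, depth did not limit the feedback genes. Their lowest library value, 4.41 CPM for Spry1 in Lip+ISO replicate 3, came from 111 counts, above the floor of 3 counts.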
